A study of Homo sapiens with 15 samples.

Results

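The insulin-like growth factor (IGF) genes examined here are the ligands IGF1 and IGF2, the receptor gene IGF1R, and the 7 binding protein genes IGFBP1 to IGFBP7. They were found by gene symbol in GENCODE 29, whose GRCh38 positions are given with each gene below. These 10 were taken out of 19684 genes measured in human induced pluripotent stem cells (hiPSCs), retinal organoids and organoid-derived cultures labelled as Müller glia. hiPSCs held mostly IGFBP2 mRNA and almost no ligand mRNA. Retinal organoids gained IGF2 while IGFBP2 and IGFBP4 fell. In cultured cells derived from the organoids IGF2 was close to 0, and IGFBP3, IGFBP4, IGFBP5, IGFBP6 and IGFBP7 were each at least 13.2-fold above D150-RO in both passages. IGF1R stayed within 2-fold at every step.

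IGF1 and IGF2 are small secreted proteins related to insulin that act through IGF1R, a receptor tyrosine kinase that signals by way of insulin receptor substrates, PI3K and AKT. IGFBP1 to IGFBP6 bind the ligands with high affinity outside the cell and can hold them away from the receptor or deliver them to it, while IGFBP7 binds them weakly. Proteases such as PAPPA cut binding proteins and free the ligand. In the retina IGF signalling is known for roles in progenitor growth and in the survival of neurons, and Müller glia can secrete IGF binding proteins.

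The study used 15 libraries, 3 in each of 5 groups, and all came from the BC1-GFP line, a hiPSC line that carries a green fluorescent protein reporter. The hiPSC group was grown undifferentiated on Matrigel in mTeSR1, a medium without serum. D70-RO and D150-RO are neural retina layers cut from retinal organoids (ROs) after 70 and 150 days of differentiation, kept in medium with fetal bovine serum and with B27, which N2 replaced in the older organoids. P1-iMGC and P5-iMGC are cells from dissociated D150-RO neural retina, plated on Matrigel in DMEM with serum and collected on day 5 of passage 1 or passage 5. iMGC stands for induced Müller glial cell, the main support glia of the retina, and the cells were enriched by plating and passage, with no sort described. The medium changed with the group. N2 and B27 both contain insulin, and the insulin content of mTeSR1 and of the iMGC medium is not given in the sources used here. Culture medium and cell state therefore cannot be told apart in these comparisons. The methods describe 3 independent experiments a group, each with 5 organoids pooled where organoids were used, while the text of the series gives 2 experiments for hiPSCs and organoids and names 2 sequencing companies, so p-values measure the spread between these libraries, which may be partly technical. Which library came from which company is not given in the sources used here, so group and company cannot be told apart. All groups come from 1 line.

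Library depth was between 11349600 and 20398755 expected counts, with D70-RO replicate 2 the shallowest. Lists of markers bore on the labels. POU5F1, NANOG, LIN28A and DNMT3B together reached 3148 to 3222 FPKM in hiPSCs and 15.9 or less elsewhere. FPKM, fragments scaled to transcript length and to the mapped fragments of a library, is a level per length. The photoreceptor markers CRX, RCVRN, NRL and ARR3 summed to 674 to 680 FPKM in D150-RO and to 0.56 or less in iMGCs. Of the 6 Müller glia markers, VIM carried nearly the whole sum in iMGCs, at 2160 ± 20.0 FPKM in P1 (SD, n = 3), whereas RLBP1 was 33.5 ± 3.66 in D150-RO and 0 in every P1-iMGC library. GLUL was 100.2 ± 2.37 in D150-RO and 13.4 ± 1.18 in P1-iMGC. AQP4 was 0 in both passages, but it was already scarce in D150-RO (0.19 ± 0.045) and in hiPSC (0.48 ± 0.36). The 9 mesenchymal markers (COL1A1, COL1A2, COL3A1, PDGFRB, TAGLN, ACTA2, LUM, DCN, POSTN) summed to 28.4 to 33.3 FPKM in D150-RO, 4345 to 4633 in P1-iMGC and 4705 to 4914 in P5-iMGC. All 9 were at 1 FPKM or more in P1 and 8 in P5, against 5 in D150-RO and 6 in hiPSC and in D70-RO. COL1A1 (2000 ± 53.5 FPKM) and TAGLN (1940 ± 82.4 FPKM) made up most of the P1 sum. Of the Müller glia markers, 3 of 6 reached 1 FPKM in P1 and 4 of 6 in P5, so iMGC is used below as the label of these libraries. The organoid and iMGC libraries were deposited in separate tables. The median gene was 0.59 lower in P1-iMGC than in D150-RO on the log2(FPKM + 1) scale but 0.048 lower in the count fit. With upper-quartile factors the count fit gave 0.163 lower. Shifts on the FPKM scale also occurred among groups deposited together. There the median gene was 0.27 higher in D150-RO than in hiPSC and 0.19 higher than in D70-RO (count fit -0.020 and -0.008). FPKM set across groups carry such shifts, so fold changes come from the counts.

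Upstream DNA is given first for IGFBP3, IGFBP4 and IGFBP5, 3 of the genes that rose in iMGCs and whose windows hold an AT-rich run. It is also given for IGFBP2, which rose too, though by less (3.24-fold from D150-RO to P1-iMGC). IGFBP6 also rose, and its window, which holds none of the letters searched, is not printed. Each stretch is 100 bases long, from 120 to 21 bases before the RefSeq start site (GRCh38.p14), read 5′ to 3′ on the strand of the gene. Capitals mark matches, on either strand, to 3 AT-rich runs of the TATA type (named below with their shares) or to the GC box core GGGCGG, all chosen after these sequences had been seen. IGFBP3 lies at chr7:45921293-45921392 on the minus strand, IGFBP4 at chr17:40443330-40443429 on the plus strand, IGFBP5 at chr2:216695570-216695669 on the minus strand and IGFBP2 at chr2:216633300-216633399 on the plus strand. RefSeq lists 3 starts for IGFBP2, and the window of the middle one is shown.
IGFBP3: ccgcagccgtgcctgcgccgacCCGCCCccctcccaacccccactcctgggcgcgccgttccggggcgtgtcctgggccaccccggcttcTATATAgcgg
IGFBP4: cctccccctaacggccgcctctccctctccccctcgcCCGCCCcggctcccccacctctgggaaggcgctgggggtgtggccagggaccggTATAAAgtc
IGFBP5: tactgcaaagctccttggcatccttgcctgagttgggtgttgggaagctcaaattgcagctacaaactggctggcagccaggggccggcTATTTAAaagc
IGFBP2: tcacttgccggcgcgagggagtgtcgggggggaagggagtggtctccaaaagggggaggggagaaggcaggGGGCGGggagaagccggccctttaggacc

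The IGFBP3, IGFBP4 and IGFBP5 windows each held an AT-rich run of the TATA type on the strand of the gene, and in each the last base of the run lay 24 or 25 bases before the start. The letters of the IGFBP3 run, TATATA, occurred in 1.77% of the 35116 RefSeq windows of the same length. The shares given here count a match on either strand and anywhere in the window, not only at this distance. The IGFBP4 run, TATAAA, occurred in 5.25% of them and the IGFBP5 run, TATTTAA, in 1.63%, and 7.84% held at least 1 of the 3. None of the 3 runs was in the IGFBP2 window, nor in the windows of IGF1, IGF1R and IGFBP6, so they were not shared by every gene that rose. The GC box core was in the IGFBP2, IGFBP3 and IGFBP4 windows and in 30.0% of all windows. A match describes the letters only. No promoter entry was matched for IGF2, IGFBP1 and IGFBP7.

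**Figure D1:**
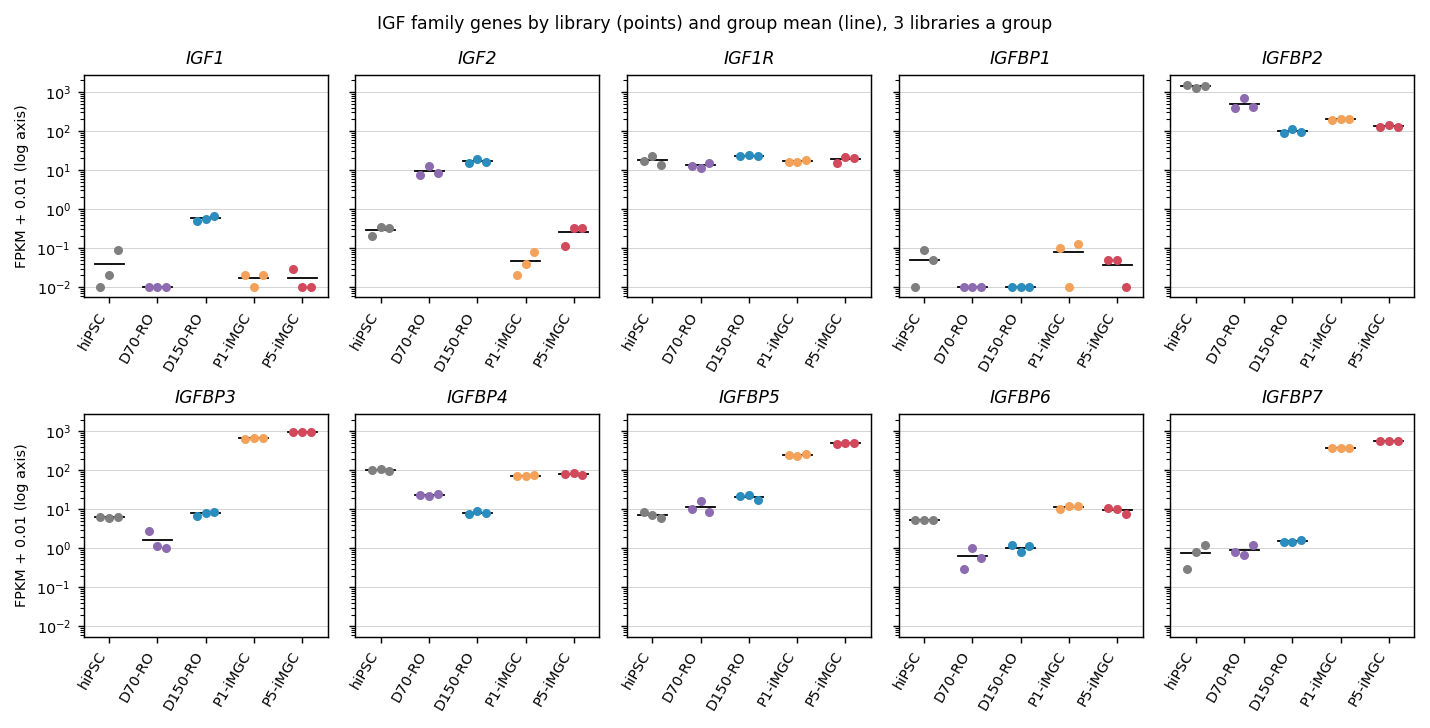
FPKM of each of the 10 genes in each library (points, 3 a group) with the group mean (line), on a log axis after adding 0.01. IGF2 is at 7.50 FPKM or more in the organoid libraries and at 0.33 or less in the others. IGF1R group means run from 13.1 FPKM (D70-RO) to 23.2 FPKM (D150-RO), and IGFBP3, IGFBP5 and IGFBP7 stand highest in the iMGC groups.

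The ligands were organoid transcripts in this series. IGF2 (ENSG00000167244, chr11:2129112-2149603, minus strand), the growth factor most abundant before birth, measured 0.20, 0.33 and 0.32 FPKM in the 3 hiPSC libraries and 7.50, 12.40 and 8.65 FPKM in D70-RO. In D150-RO it measured 15.42, 18.78 and 15.95 FPKM. Every organoid library was therefore above every hiPSC library, and D150-RO was above D70-RO without overlap. IGF2 then measured 0.01, 0.03 and 0.07 FPKM in P1-iMGC and 0.10, 0.31 and 0.32 FPKM in P5-iMGC, which rest on 5 and 28 reads over the 3 libraries.

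The D70-RO gain of IGF2 over hiPSC was 5.03 ± 0.31 on the log2 scale (SE, edgeR adjusted p = 7.62e-08), or 32.7-fold. D150-RO was 1.59-fold above D70-RO (log2 0.67 ± 0.22, edgeR adjusted p = 0.0229), under the 2-fold threshold. Without D70-RO replicate 2, the shallowest library, this difference was just past the threshold (log2 1.005, adjusted p = 8.19e-07). From D150-RO to P1-iMGC IGF2 fell by 8.77 on the log2 scale (SE 0.21, edgeR adjusted p = 2.30e-15), from 3485 reads in the group to 5. IGF2 entered the tests against hiPSC and P1-iMGC through the organoid libraries alone, since all others were under 1 FPKM, so a difference was built into its entry. The insulin gene INS and the read-through gene INS-IGF2, which shares exons with IGF2, were listed at 0 in all 15 libraries, as was a further identifier that carries the IGF2 symbol.

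IGF1 (ENSG00000017427, chr12:102395874-102481744, minus strand), the ligand that growth hormone induces in liver, was scarce everywhere. It gave 57, 51 and 36 reads in the D150-RO libraries (0.50, 0.56 and 0.67 FPKM) and 0 reads in all 3 D70-RO libraries. With a floor of 3 reads over the D70-RO group, D150-RO was at least 48.9-fold higher per library total. hiPSCs held 4 reads, P1-iMGC 2 and P5-iMGC 3 in all, and the count ratio of D150-RO to P1-iMGC was 74.8 (95% interval 20.3 to 624, exact, covering counting error only). IGF1 did not reach 1 FPKM in any library and entered no main test. D150-RO was thus the group with the most mRNA of both ligands.

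The receptor gene IGF1R (ENSG00000140443, chr15:98648539-98964530, plus strand) showed the steadiest level of the family. It measured 17.08, 23.53 and 13.40 FPKM in hiPSC and 13.09, 11.42 and 14.88 FPKM in D70-RO. D150-RO gave 23.01, 24.24 and 22.30 FPKM, P1-iMGC 16.36, 16.23 and 18.09 FPKM, and P5-iMGC 15.62, 21.38 and 20.52 FPKM. The hiPSC range overlapped all other groups. The 4 stepwise differences of IGF1R were -0.44, 0.54, -0.11 and 0.25 on the log2 scale, with SEs of 0.14, 0.097, 0.049 and 0.045. Each had an edgeR adjusted p under 0.05 (0.0142, 0.000925, 0.0389 and 0.000144), and none reached 2-fold.

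Binding protein mRNA passed through a low point in D150-RO. The 7 genes summed to 1535 ± 140 FPKM in hiPSC (SD, n = 3), 546 ± 176 in D70-RO, 137 ± 13.6 in D150-RO, 1570 ± 31.2 in P1-iMGC and 2224 ± 26.5 in P5-iMGC. IGFBP2 made up 92.0% ± 1.02 of the hiPSC sum, 92.7% ± 1.62 in D70-RO and 71.1% ± 1.71 in D150-RO. In P1-iMGC its share was 12.7% ± 0.32, and in P5-iMGC 5.91% ± 0.32. The iMGC sum was led by IGFBP3, at 42.8% ± 0.96 in P1 and 42.6% ± 0.42 in P5, with IGFBP7 at 23.4% ± 0.40 and 25.1% ± 0.35. IGFBP5 contributed 15.3% ± 1.88 in D150-RO, 15.7% ± 0.90 in P1 and 22.3% ± 0.70 in P5. hiPSC and P1-iMGC thus held nearly the same summed FPKM, made of different genes. This near equality is on the FPKM scale alone. The median gene there was 0.35 lower in P1-iMGC than in hiPSC on log2(FPKM + 1), against 0.083 lower in the count fit.

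**Figure D2:**
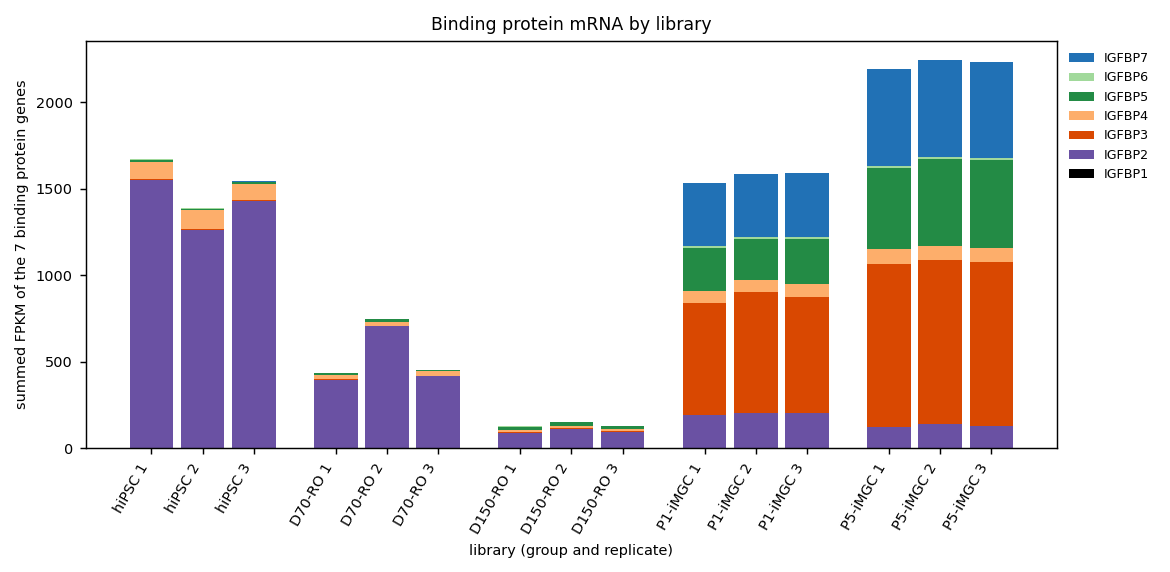
Summed FPKM of the 7 binding protein genes in each of the 15 libraries, with each gene as a coloured part of the bar. hiPSC and D70-RO bars are almost wholly IGFBP2, D150-RO bars are the lowest at 128 to 153 FPKM, and iMGC bars are made mostly of IGFBP3, IGFBP7 and IGFBP5.

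Set against ligand mRNA, the lowest ratio was also in D150-RO. Binding protein FPKM per FPKM of IGF1 and IGF2 together was 8.06, 7.92 and 7.88 in the D150-RO libraries and 58.1, 60.4 and 52.6 in D70-RO. In hiPSC it was 3858 to 8350 and in iMGCs 6984 or more, where the divisor was 0.4 FPKM or less in every library. In those 3 groups the ratio therefore says little more than that ligand mRNA was near 0.

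IGFBP2 (ENSG00000115457, chr2:216632828-216664436, plus strand), the binding protein most typical of embryonic cells and neural tissue, measured 1549, 1264 and 1427 FPKM in hiPSC, where it ranked 53 of 19684 genes by mean FPKM. It measured 397.82, 707.40 and 419.15 FPKM in D70-RO and 88.82, 111.07 and 93.75 FPKM in D150-RO. P1-iMGC gave 189.83, 205.85 and 201.65 FPKM, and P5-iMGC 124.45, 140.78 and 128.98 FPKM. No 2 groups overlapped. IGFBP2 fell 3.03-fold from hiPSC to D70-RO and 7.06-fold from D70-RO to D150-RO, then rose 3.24-fold from D150-RO to P1-iMGC. The log2 values were -1.60 ± 0.22, -2.82 ± 0.24 and 1.70 ± 0.060 (SE), with edgeR adjusted p of 6.07e-05, 1.09e-05 and 3.27e-13. P5-iMGC was 1.41-fold below P1-iMGC (log2 -0.50 ± 0.049, edgeR adjusted p = 1.45e-08), under the 2-fold threshold. The proliferation markers MKI67, TOP2A and CCNB1 also differed between these groups, with sums of 222 to 287 FPKM in hiPSC, 56.8 to 84.7 in D70-RO and 22.0 to 32.1 in D150-RO, and the photoreceptor markers summed to 50.7 to 54.5 FPKM in D70-RO. Their part in the falls of IGFBP2 and IGFBP4 was not tested.

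IGFBP4 (ENSG00000141753, chr17:40443461-40457731, plus strand), an IGF inhibitor whose main protease is PAPPA, followed the course of IGFBP2 as far as the organoids and then came back near its hiPSC level. It measured 100.41, 107.91 and 97.11 FPKM in hiPSC, 23.46, 22.27 and 24.14 in D70-RO, and 7.74, 8.82 and 7.86 in D150-RO. P1-iMGC gave 71.96, 72.84 and 74.37 FPKM and P5-iMGC 82.00, 83.93 and 78.08 FPKM. No 2 groups overlapped in FPKM. IGFBP4 fell 4.82-fold and then 3.34-fold across the organoid steps (log2 -2.27 ± 0.11 and -1.74 ± 0.099), and rose 14.0-fold in P1-iMGC (log2 3.81 ± 0.060). The edgeR adjusted p were 1.35e-08, 1.12e-06 and 1.78e-17. P5-iMGC and hiPSC differed by 0.019 ± 0.084 on the log2 scale of the fit (edgeR adjusted p = 0.836), although the FPKM of hiPSC were all higher.

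IGFBP3 (ENSG00000146674, chr7:45912245-45921874, minus strand), which carries most circulating IGF in a complex with IGFALS, showed the widest range in FPKM after IGFBP2. It measured 6.54, 5.92 and 6.28 FPKM in hiPSC, 2.71, 1.13 and 1.02 in D70-RO, and 6.87, 8.13 and 8.79 in D150-RO. In P1-iMGC it was 648.57, 695.76 and 673.73 FPKM, and in P5-iMGC 943.74, 946.65 and 949.79 FPKM. It ranked 38 of all genes by mean FPKM in P5-iMGC. IGFBP3 fell 4.16-fold to D70-RO, rose 4.05-fold to D150-RO and rose 135-fold to P1-iMGC. The log2 values were -2.06 ± 0.31, 2.02 ± 0.32 and 7.08 ± 0.082, with edgeR adjusted p of 0.000105, 0.000471 and 8.86e-19. D70-RO replicate 1 held the highest value of its group, and without it the fall was -2.648 and the next rise 2.626 on the log2 scale. The P5-iMGC level was 1.47-fold above P1 (log2 0.56 ± 0.037, edgeR adjusted p = 1.24e-11), with no overlap of libraries but under 2-fold. IGFALS itself was under 1 FPKM in all libraries but 1 D150-RO library, and was not tested.

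IGFBP7 (ENSG00000163453, chr4:57030773-57110385, minus strand), which binds the extracellular matrix and IGFs weakly, ranked 12080 of 19684 genes by mean FPKM in D150-RO, 137 in P1-iMGC and 76 in P5-iMGC. It measured 0.28, 0.78 and 1.24 FPKM in hiPSC, 0.79, 0.68 and 1.20 in D70-RO and 1.46, 1.48 and 1.66 in D150-RO. P1-iMGC gave 365.14, 364.21 and 371.18 FPKM and P5-iMGC 559.99, 558.33 and 558.01 FPKM. The hiPSC and D70-RO values overlapped, and that pair was not tested since too few libraries reached 1 FPKM. D150-RO and D70-RO differed by 0.52 ± 0.29 on the log2 scale (edgeR adjusted p = 0.130). IGFBP7 rose 377-fold from D150-RO to P1-iMGC (log2 8.56 ± 0.073, edgeR adjusted p = 1.37e-19), the largest rise of the family at this step. P5-iMGC was 1.59-fold above P1-iMGC (log2 0.67 ± 0.035, edgeR adjusted p = 1.22e-13).

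IGFBP5 (ENSG00000115461, chr2:216672105-216695525, minus strand), a binding protein that is held in the matrix and is the most conserved of the family, had a higher mean FPKM at each step than at the one before, as had IGFBP7. It measured 8.69, 7.05 and 6.15 FPKM in hiPSC and 10.35, 16.18 and 8.63 in D70-RO, which overlapped. D150-RO gave 22.21, 22.80 and 17.83 FPKM, P1-iMGC 249.17, 232.88 and 259.72, and P5-iMGC 472.64, 503.27 and 512.37. The organoid steps stayed under 2-fold (log2 0.56 ± 0.23 and 0.61 ± 0.23, edgeR adjusted p = 0.0455 and 0.0353). IGFBP5 rose 18.4-fold to P1-iMGC (log2 4.203 ± 0.083, edgeR adjusted p = 2.28e-16) and 2.09-fold from P1 to P5 (log2 1.07 ± 0.043, edgeR adjusted p = 1.09e-15). The second value lies close to the threshold, and the alternatives gave 1.002 to 1.111 on the log2 scale.

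IGFBP6 (ENSG00000167779, chr12:53097436-53102345, plus strand), which prefers IGF2 over IGF1, was the least abundant binding protein besides IGFBP1 in every group but hiPSC, where IGFBP7 was lower. It measured 5.40, 5.40 and 5.20 FPKM in hiPSC, 0.29, 1.01 and 0.57 in D70-RO and 1.22, 0.79 and 1.12 in D150-RO. P1-iMGC gave 10.07, 12.07 and 12.05 FPKM and P5-iMGC 11.07, 10.51 and 7.76 FPKM. The organoid groups overlapped each other, and so did the iMGC groups. IGFBP6 fell 9.29-fold from hiPSC to D70-RO (log2 -3.22 ± 0.43, edgeR adjusted p = 4.18e-05), where it rested on 25 reads and where leaving out D70-RO replicate 2 gave -3.964, and rose 13.8-fold from D150-RO to P1-iMGC (log2 3.79 ± 0.20, edgeR adjusted p = 4.42e-11). D150-RO and D70-RO differed by 0.90 ± 0.55 (edgeR adjusted p = 0.168), and by 1.64 without D70-RO replicate 2, which then passed (adjusted p = 0.0126). P5-iMGC and P1-iMGC differed by -0.062 ± 0.12 (edgeR adjusted p = 0.761).

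IGFBP1 (ENSG00000146678, chr7:45888357-45893668, plus strand), an insulin-repressed binding protein made mainly in liver and decidua, was at the limit of detection. It gave 0 reads in all 6 organoid libraries, which allows up to 3 reads a group. hiPSC held 3 reads, P1-iMGC 5 and P5-iMGC 2 over 3 libraries each. No fold is given for it. Albumin, AFP, APOA1, SOX17 and FOXA2, markers of liver and endoderm, summed to 7.57 FPKM or less in every library.

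**Figure D3:**
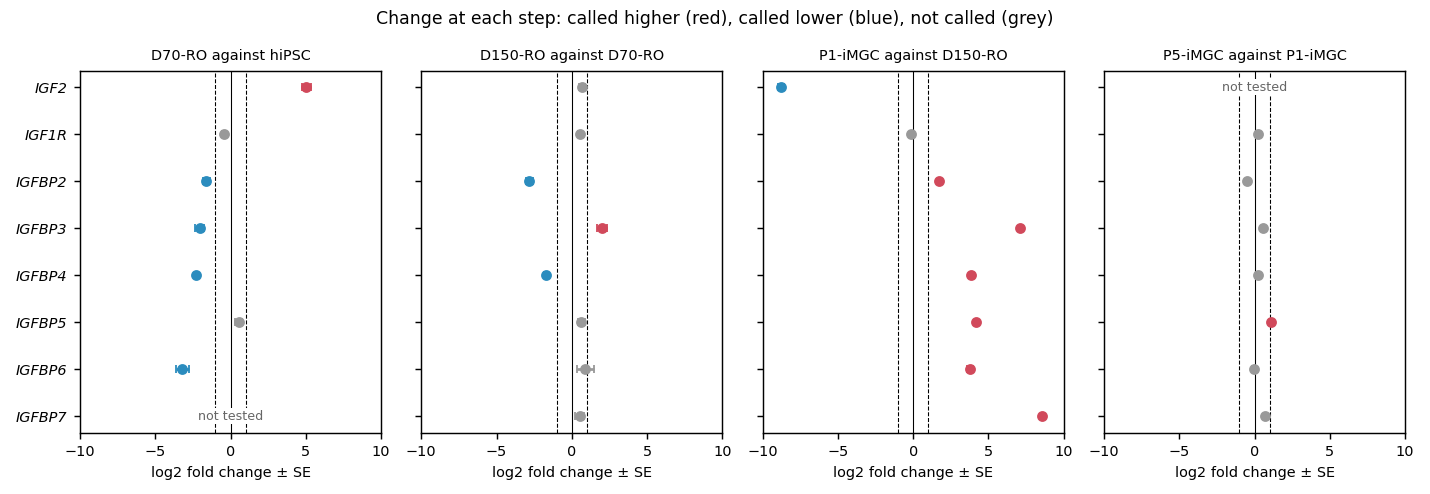
Log2 fold change with its SE for the 8 genes that entered at least 1 main test, at each of the 4 steps. The largest values are at the step from D150-RO to P1-iMGC, where 6 genes rose and IGF2 fell, and the dashed lines mark 2-fold.

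Counted by step, 5 of the 7 members tested changed from hiPSC to D70-RO, with IGF2 higher and IGFBP2, IGFBP3, IGFBP4 and IGFBP6 lower. Over all 12954 genes tested, 22.5% were called higher and 21.1% lower at this step. From D70-RO to D150-RO 3 of 8 changed, with IGFBP3 higher and IGFBP2 and IGFBP4 lower, against 16.6% of all genes higher and 16.7% lower. From D150-RO to P1-iMGC 7 of 8 changed, with all 6 detected binding proteins higher and IGF2 lower, against 20.0% higher and 24.1% lower. From P1 to P5, IGFBP5 alone of 7 was called, in the higher direction, against 1.94% higher and 0.977% lower. IGFBP2 was the member below 0 at an unadjusted p under 0.05, and DESeq2 and limma likewise called 0 members lower. With the adjusted p alone, 6 of those 7 passed, against 30.7% of all genes. A gene was tested where 3 of the 6 libraries reached 1 FPKM, so IGF2, IGFBP6 and IGFBP7 entered some steps through the higher group alone or nearly so.

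The rise of the binding proteins in iMGCs accompanied the marker changes given above. From D150-RO to P1-iMGC the summed mesenchymal markers, mostly COL1A1 and TAGLN, rose with IGFBP3, IGFBP4, IGFBP5, IGFBP6 and IGFBP7 in the same libraries. In iMGCs the photoreceptor markers summed to 0.56 FPKM or less. The endothelial markers PECAM1, CDH5 and VWF were near 0 in D150-RO and in iMGCs, and KDR, the remaining marker of that list, was 89.2 ± 3.97 FPKM in D150-RO and 0.47 ± 0.055 in P1-iMGC. The part of these other cell types in the result was not tested. In bulk RNA, a change in how many cells of a type are present and a change in RNA per cell cannot be told apart. The same holds for any difference of batch between groups. Serum was in the medium of both the organoids and the iMGCs, while other parts of the medium differed. The part of the medium in the result was not tested.

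The order of the 5 groups by mean FPKM differed between members. Of the 40 pairs of neighbours in these orders, 29 could be tested and 13 differed by at least 2-fold at an adjusted p under 0.05. For reference, the share of all genes called in either direction was 43.5% for D70-RO against hiPSC, 33.3% for D150-RO against D70-RO, 44.1% for P1-iMGC against D150-RO and 2.92% for P5-iMGC against P1-iMGC. It was 58.8% for D150-RO against hiPSC, 45.2% for P1-iMGC against D70-RO and 55.8% for P1-iMGC against hiPSC. For P5-iMGC it was 44.6% against D150-RO and 56.2% against hiPSC. The pairs share libraries and are not independent of each other.

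IGFBP2 descended in the order hiPSC, D70-RO, P1-iMGC, P5-iMGC, D150-RO, and P1 and P5 were the neighbours under 2-fold. For IGFBP3 the order was P5, P1, D150-RO, hiPSC, D70-RO, and D150-RO and hiPSC did not differ beyond their spread (log2 -0.028 ± 0.13, edgeR adjusted p = 0.843), nor did P5 and P1 by 2-fold. IGFBP4 ran hiPSC, P5, P1, D70-RO, D150-RO, and its upper 3 groups were within 2-fold of their neighbours. IGFBP5 and IGFBP7 ran P5, P1, D150-RO, D70-RO, hiPSC. In the lower 3 groups of IGFBP5 neighbours were within 2-fold, while D150-RO was 2.25-fold above hiPSC (edgeR adjusted p = 4.42e-06), and for IGFBP7 D150-RO and D70-RO did not differ by the test. IGFBP6 ran P1, P5, hiPSC, D150-RO, D70-RO, with the iMGC pair and the organoid pair not separated. IGF2 ran D150-RO, D70-RO, hiPSC, P5, P1. The drop between D70-RO and hiPSC was called, and the lower pairs of IGF2 were not tested. IGF1R ran D150-RO, P5, hiPSC, P1, D70-RO with no called neighbours. In 3 of the 29 tested pairs the FPKM order and the direction of the count fit differed, for IGF1R between D150-RO and P5, IGFBP3 between D150-RO and hiPSC, and IGFBP4 between hiPSC and P5.

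Some members lie side by side in the genome, and their levels differed. IGFBP2 and IGFBP5 are neighbours on chromosome 2, tail to tail with 7.668 kb and no protein-coding gene between them (GENCODE 29). IGFBP2 was at its highest in hiPSC, where IGFBP5 was at its lowest, but both rose from D150-RO to P1-iMGC (log2 1.70 and 4.20). IGFBP1 and IGFBP3 are neighbours on chromosome 7, 18.576 kb apart, and IGFBP1 stayed at 5 reads or fewer in the groups where IGFBP3 had 79463 (P1) and 111698 (P5). Across the 15 libraries the log2(FPKM + 1) values of IGFBP3 and IGFBP7 gave a Pearson r of 0.98, those of IGFBP5 and IGFBP7 0.98 and those of IGFBP3 and IGFBP5 0.97. These libraries fall in 5 groups, so the values mostly describe the gap between iMGCs and the rest.

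Over the same 15 libraries and 13914 genes, the genes most like each member were listed by r as a description. IGFBP3 was closest to FNDC3B, MAMDC2 and TGFBI (r of 0.999, 0.997 and 0.996), the last a matrix protein at 2823 FPKM in P1-iMGC. IGFBP7 was closest to RUNX2, LOX and HRH1 (each 0.998), and LOX encodes the enzyme that cross-links collagen. IGFBP5 was closest to IL7R, STS and TENM2 (0.997, 0.995 and 0.992). IGFBP4 was closest to GJA1, a gap junction gene that was 257 FPKM in hiPSC, 3.72 in D150-RO and 197 in P1-iMGC (r = 0.994), then to CNN2. IGFBP6 was closest to ZYX, QSOX1 and VCL (0.990, 0.990 and 0.988), of which ZYX and VCL encode focal adhesion proteins. IGFBP2 was closest to DDT, EI24 and TUBB (0.989, 0.988 and 0.986), the last a tubulin gene. IGF2 was closest to EBF4, LSAMP and COLGALT2 (each 0.996), and IGF1R to WNK1 (0.885), TLN2 (0.882) and ANKRD11 (0.865).

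Genes that clear or process the ligands and binding proteins were counted in lists taken whole. Of 14 carriers, proteases and protease inhibitors, 12 could be tested from D150-RO to P1-iMGC. In edgeR 9 were higher and 0 lower, against 20.0% of all genes called higher and 24.1% lower. At an unadjusted p under 0.05, 1 was lower, and DESeq2 and limma called 0 lower. The median log2 change of the 12 was 2.22, beside -0.05 over all genes tested. ADAM12, a metalloprotease that cuts IGFBP3 and IGFBP5, went from 1.56, 2.36 and 1.97 FPKM to 91.41, 97.43 and 88.67 (log2 6.00 ± 0.069, edgeR adjusted p = 8.23e-19). PAPPA, the main IGFBP4 protease, went from 1.09, 0.88 and 0.61 FPKM to 29.92, 28.89 and 31.51 (log2 5.78 ± 0.11). It entered the test through P1-iMGC, since 1 D150-RO library reached 1 FPKM, so a difference was built into its entry. MMP14 rose by 5.17 ± 0.058 on the log2 scale, to 262 ± 3.48 FPKM, and STC2, an inhibitor of PAPPA, rose by 4.02 ± 0.054, to 81.7 ± 1.20 FPKM (edgeR adjusted p = 6.59e-19 and 3.38e-18). The remaining called genes were HTRA1, ADAM9, MMP2, CTSD and PLAT. IGFBPL1, PAPPA2 and STC1 were tested and not called.

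**Figure D4:**
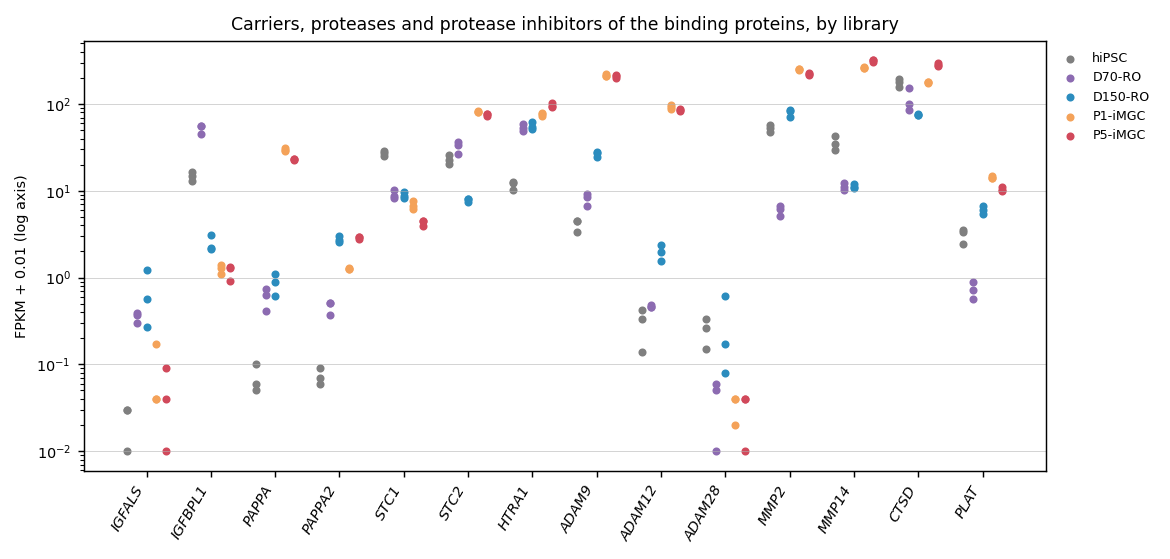
FPKM of 14 carriers, proteases and protease inhibitors of the binding proteins in each library, on a log axis after adding 0.01, coloured by group. ADAM9, ADAM12, PAPPA, MMP14 and STC2 are set apart in the iMGC libraries, and IGFBPL1 is highest in D70-RO.

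The same list moved in both directions earlier. From hiPSC to D70-RO, 2 of 9 tested were higher and 4 lower, against 22.5% and 21.1% of all genes, led by MMP2 (log2 -3.25 ± 0.13), PLAT (-2.32 ± 0.25, entering through hiPSC alone), HTRA1 (2.11 ± 0.14) and MMP14 (-1.81 ± 0.16). From D70-RO to D150-RO, 5 of 11 were higher and 2 lower, against 16.6% and 16.7% of all genes, led by IGFBPL1, which fell by 4.63 ± 0.17, and by MMP2 (3.36 ± 0.097), PLAT (2.92 ± 0.20) and PAPPA2 (2.39 ± 0.17). PLAT, PAPPA2 and ADAM12 entered that step through D150-RO alone, so a difference was built into their entry. IGFBPL1, a binding protein relative studied in retinal axon growth, was 14.8 ± 1.79 FPKM in hiPSC, 52.1 ± 6.42 in D70-RO and 2.46 ± 0.54 in D150-RO (SD, n = 3). From P1 to P5, PAPPA2, the IGFBP5 and IGFBP3 protease, was the only one of 12 called, against 1.94% of all genes called higher, from 1.26 ± 0.031 to 2.87 ± 0.062 FPKM (log2 1.25 ± 0.081, edgeR adjusted p = 9.03e-12). IGFBP5 was the member called at the same step.

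Of 6 other ligands and receptors, 4 were tested from D150-RO to P1-iMGC, and 2 were higher and 1 lower, against 20.0% and 24.1% of all genes. IGF2R, which takes up IGF2 for breakdown, went from 24.48, 22.26 and 23.47 FPKM to 98.84, 101.27 and 103.54 (log2 2.72 ± 0.049, edgeR adjusted p = 7.64e-17). LRP1, an uptake receptor that also binds IGFBP3, rose by 3.12 ± 0.058, to 107 ± 1.75 FPKM. INSR, the insulin receptor gene, fell by 2.14 (SE 0.069), from 10.3 ± 0.54 to 1.77 ± 0.13 FPKM (edgeR adjusted p = 9.22e-14). IGF1R was 23.2 ± 0.98 and 16.9 ± 1.04 FPKM in the same libraries. From hiPSC to D70-RO, GHR, the growth hormone receptor gene, was higher (log2 3.02 ± 0.26, entering through D70-RO), and LRP1 (-1.51 ± 0.17) and IGF2R (-1.20 ± 0.16) were lower. From D70-RO to D150-RO 0 of 4 were called by edgeR, DESeq2 or limma, with 4 higher at an unadjusted p under 0.05. From P1 to P5 it was 0 of 3, with 2 higher. Over all genes edgeR called 33.3% in either direction at the first of these steps and 2.92% at the second.

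Of 24 adaptors and members of the PI3K, AKT and FOXO arm, all were tested from hiPSC to D70-RO, and 7 were higher and 8 lower, against 22.5% and 21.1% of all genes. PIK3R1, the regulatory subunit p85 alpha of PI3K, had the largest change there (log2 3.97 ± 0.17), and it rose again to D150-RO (1.96 ± 0.11) and fell in P1-iMGC by 3.72 (SE 0.052). PIK3R1 levels were 257.52, 260.50 and 249.08 FPKM in D150-RO and 12.09, 11.82 and 10.35 in P1-iMGC. For this gene FPKM and the count fit differed in size, with 32.35, 23.76 and 34.79 FPKM in D70-RO against a fitted gain of 3.89-fold to D150-RO. In D70-RO, GRB14 (-2.58 ± 0.34, entering through hiPSC alone) and FOXO1 (-2.06 ± 0.12) were lower. In D150-RO 4 of 22 were higher and 0 lower than in D70-RO (6 lower at an unadjusted p under 0.05, and 0 by DESeq2 or limma), the higher ones being PIK3CA (1.24 ± 0.19), MTOR (1.15 ± 0.12) and GAB1 (1.05 ± 0.094) beside PIK3R1. Over all genes 16.6% were called higher and 16.7% lower at that step. The higher share of the list was thus near the background, and its lower share was below it. In P1-iMGC 3 of 22 were higher, SHC1 (3.00 ± 0.049), IRS2 (1.13 ± 0.077) and IRS1 (1.09 ± 0.070), and 3 lower, PIK3R1, GAB1 (-1.14 ± 0.075) and PIK3R3 (-1.06 ± 0.060). Both counts were below the share over all genes, 20.0% higher and 24.1% lower. From P1 to P5, 0 of 23 were called by edgeR, DESeq2 or limma, against 2.92% of all genes called in either direction by edgeR. At an unadjusted p under 0.05, 7 were higher and 1 lower.

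Proteins that bind IGF2 mRNA, which are distinct from the secreted binding proteins, were highest in hiPSC, where IGF2 was near 0. IGF2BP1 was 72.8 ± 11.4 FPKM in hiPSC and 22.1 ± 4.87 in D70-RO (log2 -1.86 ± 0.17). IGF2BP3 fell at the same step (-1.62 ± 0.16), as did LIN28A (-8.62 ± 0.22) and LIN28B (-4.03 ± 0.23), while IGF2BP2 stayed under 2-fold at each of the 4 steps. These were 4 of 5 tested, against 21.1% of all genes called lower. From D150-RO to P1-iMGC, IGF2BP3 was higher (1.57 ± 0.055) and LIN28A lower (-3.36 ± 0.33) among 4 tested, where LIN28A entered through D150-RO. Over all genes 20.0% were called higher and 24.1% lower at that step. From D70-RO to D150-RO 0 of 5 were called by edgeR, DESeq2 or limma, against 16.7% of all genes called lower by edgeR. At an unadjusted p under 0.05, 5 were lower. From P1 to P5 0 of 3 were called, against 2.92% of all genes in either direction, with 1 lower at an unadjusted p under 0.05. No share over all genes was taken for the unadjusted counts of any list.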

How the data were processed

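Poly(A) RNA from 15 libraries was sequenced as paired ends. Per the labels and methods, the authors used HISAT2 for mapping, StringTie for assembly, RSEM for gene levels and DESeq2 for tests, with versions, build and annotation not given in the sources used here. The authors deposited expected counts per gene (RSEM estimates, not normalised) and FPKM, which they scaled to transcript length and mapped fragments. The series text names a correction between batches without saying which values it touched. A table with 6 count and FPKM columns that name no passage was not used.

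All 19684 identifiers matched GENCODE release 29 (GRCh38). Expected counts were rounded and tested by pair of groups with the quasi-likelihood test of edgeR 4.0.16 (R 4.3.3) with TMM factors, on genes at FPKM 1 or more in at least 3 libraries. P-values were adjusted by Benjamini-Hochberg over all genes tested. Calls needed an adjusted p under 0.05 and a fold of 2, as in the study. The fits were checked on simulated data. Alternatives used DESeq2 1.42.0, limma 3.58.1 on log2(FPKM + 1) and log2(FPKM + 0.1), upper-quartile factors, no filter, no fold threshold, 1 fit of all 15 libraries, a replicate block, and each library left out. Named genes were all members, up to 4 called genes of largest change per list and comparison, and the 3 genes of highest r with each member, with other genes named to complete a count. Some genes that this rule selects are not reported here. Members and lists were chosen with earlier results of these data known. Intervals and floors cover counting error only. All replicate pairs differed beyond sampling noise. Whether reads were counted by strand is not given in the sources used here.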

Additional observations from a re-analysis of the deposited data

How the results depend on the processing

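The 5 changed members from hiPSC to D70-RO and the 7 from D150-RO to P1-iMGC stayed at 5 and 7 when each library was left out. With no filter on low values the 7 became 8 (IGF1 gained, on 144 and 2 reads). From D70-RO to D150-RO the count was 3, and leaving out a library gave 3 to 5, with the 5 reached without D70-RO replicate 2 (IGF2 and IGFBP6 gained). At this step no filter on low values gave 4 (IGF1 gained, on 0 and 144 reads), and no fold threshold gave 6. From P1 to P5 the count was 1, with 2 where no filter on low values was used (IGF2 gained, on 5 and 28 reads) and 6 with no fold threshold. Neighbouring groups that differed numbered 13, 22 with no fold threshold 13 to 14 with a library left out, 15 with no filter and 11 in both limma fits on FPKM. On log2(FPKM + 1) the P1 against D150-RO rises were smaller, at 1.02 for IGFBP2, 6.24 for IGFBP3, 3.02 for IGFBP4, 3.51 for IGFBP5, 2.60 for IGFBP6 and 7.18 for IGFBP7. The P5 against P1 difference of IGFBP6 (-0.062) changed sign, at 0.001 without P1-iMGC replicate 3 and 0.018 without P5-iMGC replicate 3, and ranged from -0.154 to 0.018 with a library left out. Among 420 alternative values of 30 log2 fold changes, 405 kept direction and side of the threshold, 13 gained a call and 2 changed sign. Samples of the same number deviated together at r between -0.074 and 0.337. Samples of different number were not compared, so these values cannot decide whether the numbers pair them. The replicate block left the counts at 5, 3, 7, 1 and 13. Depth limited IGF1, IGFBP1 and, in iMGCs, IGF2.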
